A study of Mus musculus with 45 samples.

Results

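The 10 genes described here are the transcription factor Nfe2l2 (Nrf2), its inhibitor Keap1, 5 genes of the Nrf2 antioxidant programme (Gclc, Gclm, Txnrd1, Srxn1 and Nqo1), the heme oxygenase gene Hmox1 and the metallothionein genes Mt1 and Mt2. They were taken by gene symbol from tables of raw read counts that list 23227 genes, and all 10 were among the 14067 genes with enough reads to be tested. Liver mRNA was sequenced from wild-type C57BL/6J mice in 45 libraries that fall into 14 groups. Every group has 3 libraries except that of 30 min of insulin on the 16-week high-fat diet (HFD), which has 6.

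All mice were killed at 24 weeks of age after an overnight fast, so fasting is common to the controls and the treated animals. Mice ate chow, or an HFD begun at 18 weeks of age for 6 weeks or at 8 weeks of age for 16 weeks, so the length of the diet and the age at its start change together and cannot be told apart. On chow and on the 16-week HFD, livers were taken without insulin (basal) or 15, 30, 60 or 120 min after an intraperitoneal injection of insulin at 1 U/kg. Metformin was given in the drinking water at 270 mg/kg lean body mass per day on chow and on both durations of HFD, and the 6-week HFD has only a basal and a metformin group. The labels do not tie each library to its own mouse beyond stating a minimum number of mice per group, and the p-values measure the spread between these libraries.

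Nrf2 is held in the cytoplasm by Keap1, which hands it to a ubiquitin ligase for destruction. Oxidants and electrophiles modify Keap1, Nrf2 then reaches the nucleus, pairs with a small Maf protein and binds antioxidant response elements in genes that make glutathione, reduce thioredoxin and detoxify quinones. Much of this control acts on Nrf2 protein, which mRNA counts do not measure. Heme oxygenase 1 breaks heme down to biliverdin, iron and carbon monoxide, is a target of Nrf2 and of the repressor Bach1, and is abundant in macrophages that take up red blood cells. Metallothioneins bind zinc and copper, and their genes answer to the zinc sensor MTF1 and to glucocorticoids in liver.

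Promoter sequence is shown for Srxn1, which differed between diets, and for Mt1 and Mt2, which differed most between groups. RefSeq promoters of build GRCm38.p6 were matched by symbol for 8 of the 10 genes, and the 250 bases before the annotated start were searched on both strands. Antioxidant response element cores (TGACNNNGC or TGAGNNNGC, the second form added after the sequences were seen) were found in 22.8% of all 27025 promoters of this length. Metal response element cores (TGCACNC or TGCGCNC) were found in 21.3% of them. Srxn1 (chr2:152105274-152105523, plus strand) held 2 antioxidant response element cores, which begin 158 and 45 bases before the start and are in capitals in its line. Both have the form added after the sequences were seen, TGAGNNNGC, and the form TGACNNNGC had no match there. Mt1 (chr8:94178839-94179088, plus strand) held 1 metal response element core and Mt2 (chr8:94172368-94172617, plus strand) held 3, in capitals in their lines. These are shares of promoters with at least 1 match, and 4 or more matches were found in 0.0407% (antioxidant) and 0.285% (metal). No share was computed for 2 or 3 matches. The matches describe letters and are not known to be binding sites here.
Srxn1: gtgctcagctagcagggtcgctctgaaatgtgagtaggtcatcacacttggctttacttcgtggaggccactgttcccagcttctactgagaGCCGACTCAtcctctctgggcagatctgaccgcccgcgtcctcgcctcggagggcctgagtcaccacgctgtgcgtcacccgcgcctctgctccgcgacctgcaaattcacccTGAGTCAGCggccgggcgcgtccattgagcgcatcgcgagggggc
Mt1: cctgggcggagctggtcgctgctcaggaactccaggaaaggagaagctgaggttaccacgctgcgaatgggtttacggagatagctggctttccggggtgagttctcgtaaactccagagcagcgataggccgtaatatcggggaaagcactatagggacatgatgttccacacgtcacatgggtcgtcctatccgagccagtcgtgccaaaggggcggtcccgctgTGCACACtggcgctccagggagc
Mt2: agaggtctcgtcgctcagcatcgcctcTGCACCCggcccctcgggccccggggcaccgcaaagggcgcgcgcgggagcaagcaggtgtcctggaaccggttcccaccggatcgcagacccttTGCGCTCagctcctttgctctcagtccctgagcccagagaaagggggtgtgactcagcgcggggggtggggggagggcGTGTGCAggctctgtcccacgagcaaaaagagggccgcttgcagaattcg

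Among the other promoters, single antioxidant response element cores were present for Gclm (134 bases before the start), Mt2 (79), Nfe2l2 (240) and 1 of the start sites of Txnrd1 (92). Gclm also held 2 metal response element cores and Srxn1 held 1. Keap1 and Nqo1 held neither set of letters in this window.

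Levels are given as CPM (reads of a gene relative to the library total), scaled with trimmed mean of M-values (TMM) factors, and genes are compared with each other only as CPM per kilobase of exon. On that scale the metallothioneins were the most abundant of the 10, with means of the 14 group means of 323 for Mt1 and 228 for Mt2. The glutamate-cysteine ligase subunits followed at 86.5 for Gclc and 83.2 for Gclm. Txnrd1 (39.5), Srxn1 (28.0), Nfe2l2 (25.2) and Hmox1 (22.9) lay lower, and Keap1 (12.8) and Nqo1 (5.76 CPM per kilobase) were lowest. Spread between libraries of 1 group separated the same genes. The median coefficient of variation within groups was 56.5% for Mt2, 48.9% for Mt1 and 30.3% for Hmox1, against 8.15% for Gclm, 6.76% for Txnrd1 and 4.53% for Keap1. In the basal comparison of 6-week HFD with chow the SE of the log2 fold change was 0.65 for Mt1 and 0.81 for Mt2, against 0.11 for Txnrd1.

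The genes lie on 5 chromosomes of build mm9, the build of the deposited gene model. Mt2 (chr8:96696518-96697467) and Mt1 (chr8:96702989-96704227) are neighbours on the plus strand, with 556 and 542 exonic bases, the shortest of the 10. Hmox1 is at chr8:77617517-77624492 and Srxn1 at chr2:151931466-151937089, both on the plus strand. Nfe2l2 is at chr2:75513576-75542698 and Keap1 at chr9:21034174-21043776, both on the minus strand. Txnrd1 is at chr10:82296696-82360469 on the plus strand. In a later annotation 52.1% of the 40-base words of Mt2 transcripts are shared, on either strand, with the gene Gm45774. For Keap1 8.43% are shared with the gene Gm16754. The library kit does not mark strand, so reads of the shared stretches cannot be told apart by gene. No 40-base word of Mt1 was shared with another gene.

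Library totals ran from 18193181 to 50253493 counted reads. The 8 hepatocyte markers were detected in every library, with a summed level of 77680 to 162380 CPM. Pancreatic acinar markers, 13 genes all detected, summed to between 7.5 and 21068 CPM (median 65.6). The 10 skeletal muscle markers summed to between 0.426 and 1520 CPM (median 1.06). Basal livers had acinar sums of 2024, 899 and 336 CPM on chow and 22.8, 193 and 10 on the 16-week HFD. At 15, 30, 60 and 120 min of insulin the median acinar sums were 407, 208, 357 and 1355 CPM on chow. On the 16-week HFD they were 26.8, 41.2, 30.6 and 214 CPM. The source of this RNA and its part in the diet comparisons were not tested. The 13 Kupffer cell and macrophage markers summed to 225 to 1509 CPM. All 9 metformin libraries leaned towards short genes (Spearman correlation of a library's deviation with exon length, -0.61 to -0.13), and the 6 libraries of 30 min of insulin on the 16-week HFD fell into replicates 1 to 3 and 4 to 6 with opposite trends in GC content (0.19 to 0.22 against -0.22 to -0.13).

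Srxn1, which encodes sulfiredoxin, the enzyme that restores overoxidised peroxiredoxins, was lower on both durations of HFD than on chow. In basal livers the chow libraries had 90.3, 106 and 104 CPM, the 6-week HFD libraries 54.0, 47.3 and 75.8, and the 16-week HFD libraries 53.9, 46.0 and 71.9. No HFD library reached the lowest chow library, and the 6-week and 16-week libraries overlapped. The log2 fold change against chow was -0.81 ± 0.20 (SE, n = 3 and 3) at 16 weeks (adjusted p = 0.00207) and -0.76 ± 0.20 at 6 weeks (adjusted p = 0.0105), by edgeR's quasi-likelihood test with Benjamini-Hochberg adjustment over all genes tested. Between 16 and 6 weeks the difference was -0.04 ± 0.20 (adjusted p = 0.92). The comparisons with chow share the same 3 chow livers, and the 6-week call was lost without 6-week HFD library 1 or library 2, with adjusted p up to 0.0816. The GC trends of basal libraries (Spearman correlations) were -0.29 to -0.08 on chow, -0.23 to -0.15 on the 6-week HFD and 0.17 to 0.32 on the 16-week HFD. With length and GC trends removed the Srxn1 differences were -0.97 at 16 weeks (adjusted p = 0.000223) and -0.82 at 6 weeks (adjusted p = 0.00337), by edgeR.

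Each of these comparisons called 1 of the 10 genes, Srxn1, while 32.3% of all genes tested passed at 16 weeks and 11% at 6 weeks. For the 16-week minus 6-week comparison, 0 of 10 were called by edgeR, 2 had an unadjusted p under 0.05, and 10.2% of all genes were called. The share of the 10 that was called by edgeR was thus near or below that of genes in general. At an unadjusted p under 0.05 there were 6 of the 10 at 6 weeks, against 3460 of 14067 genes, and 3 at 16 weeks, against 5909. At 6 weeks Nfe2l2 (0.39 ± 0.15, adjusted p = 0.0803) and Gclc (0.41 ± 0.18, adjusted p = 0.146) were higher without overlap and not called by edgeR. In a fit of those groups alone both were called (adjusted p = 0.0205 and 0.0171).

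The 16-week diet was also compared with chow in 5 further sets of livers that share no library with the basal set or with each other. Srxn1 was lower in 4 of them by the test: by -0.60 ± 0.20 at 15 min of insulin (adjusted p = 0.0262), -0.64 ± 0.20 at 60 min (adjusted p = 0.0196), -0.76 ± 0.20 at 120 min (adjusted p = 0.00503) and -0.59 ± 0.20 on metformin (adjusted p = 0.0336), all as log2 fold changes from edgeR. At 120 min the chow livers had 78.0, 98.3 and 75.9 CPM and the 16-week HFD livers 48.2, 48.4 and 52.8, with a wide gap between the groups. At 60 min the chow livers had 93.3, 99.7 and 84.2 CPM and the HFD livers 58.4, 60.9 and 59.0, again without overlap. On metformin the groups overlapped, with 74.6, 113 and 114 CPM on chow and 76.8, 64.8 and 59.5 on the HFD. On metformin the 6-week HFD livers, at 53.9, 50.0 and 65.6 CPM, lay below every chow liver, with a log2 fold change of -0.83 ± 0.20 (adjusted p = 0.0109, edgeR). The calls at 15 and 60 min and both on metformin were each kept in 2 of 6 fits that left out 1 library, and those at 120 min and in basal livers at 16 weeks in 6 of 6.

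The exception was 30 min of insulin, where Srxn1 differed by -0.23 ± 0.17 (adjusted p = 0.307, edgeR). There the 3 chow libraries had 77.3, 65.3 and 91.9 CPM, and the 6 HFD libraries had a lowest value of 49.4, a median of 61.9 and a highest of 88.2. HFD replicates 1 to 3 had 88.2, 69.6 and 87.5 CPM and lay within the chow range, and replicates 4 to 6 had 54.2, 51.4 and 49.4 and lay below it. Against replicates 4 to 6 alone, an alternative chosen after the data were seen, the difference was -0.61 (adjusted p = 0.00849, edgeR). The same division of the 6 libraries is seen in their GC trends, and its part in the Srxn1 values was not tested.

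**Figure D1:**
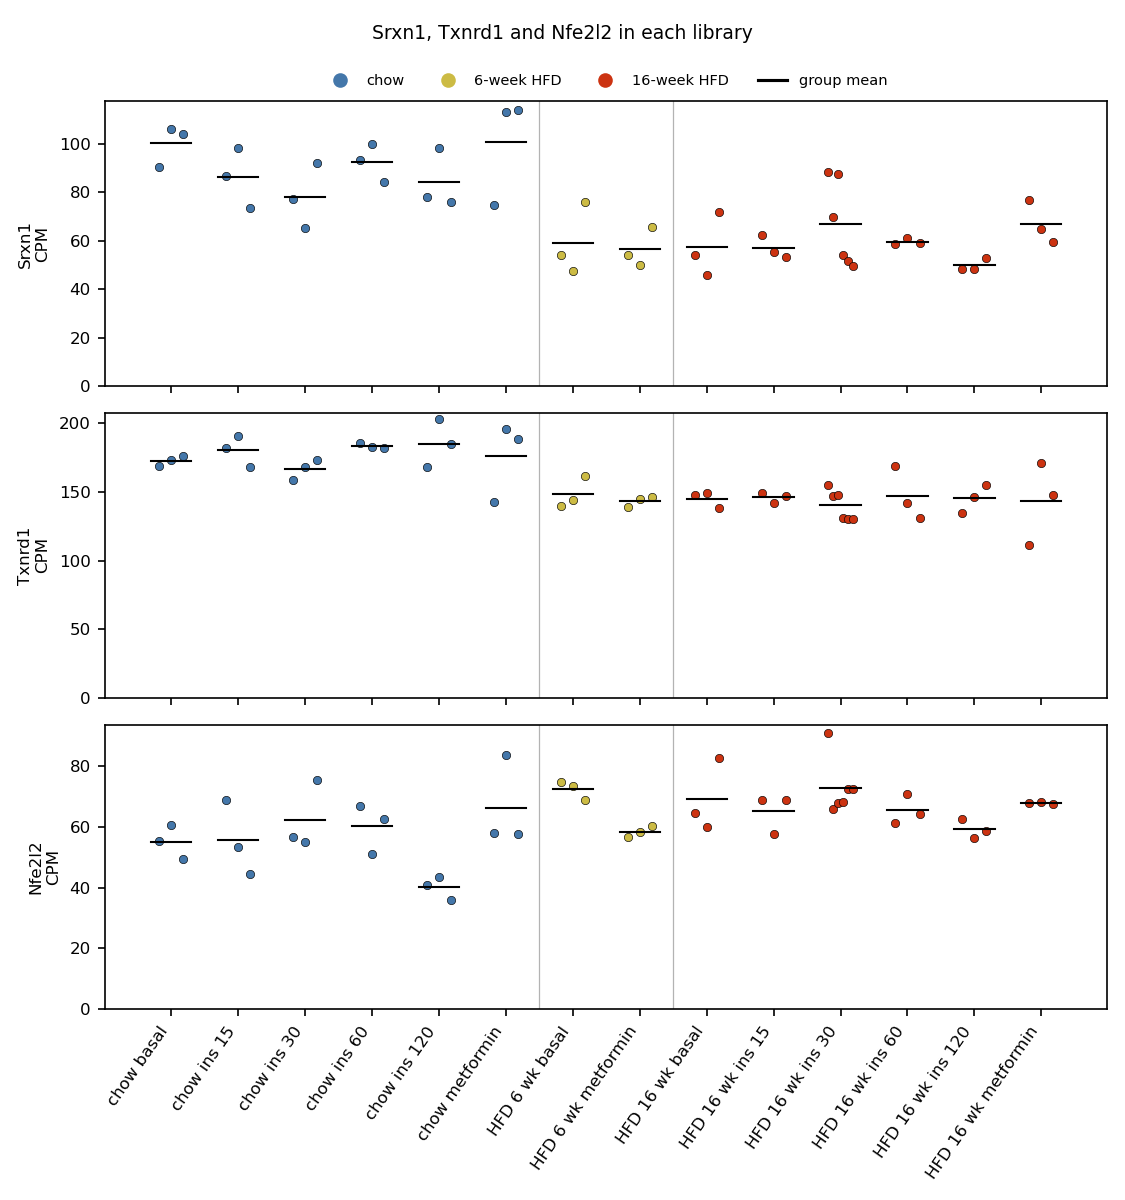
Srxn1, Txnrd1 and Nfe2l2 in CPM (linear axes from 0) for each of the 45 libraries, with points coloured by diet, bars at group means and groups along the x axis (ins, minutes after insulin). Srxn1 was 90.3 to 106 CPM in basal chow livers and 46.0 to 71.9 in basal 16-week HFD livers, and the 6 libraries at 30 min on the HFD form a high and a low set of 3.

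Txnrd1, the cytosolic thioredoxin reductase, was modestly lower on the 16-week HFD. Values in basal livers were 169, 173 and 176 CPM on chow and 148, 149 and 138 on the HFD, without overlap, but the log2 fold change of -0.25 ± 0.11 was not called (adjusted p = 0.0837, edgeR). In insulin-treated livers it was called at 15 min (-0.31 ± 0.11, adjusted p = 0.0415), 30 min (-0.25 ± 0.10, adjusted p = 0.0414), 60 min (-0.32 ± 0.11, adjusted p = 0.0374) and 120 min (-0.35 ± 0.11, adjusted p = 0.0193). The calls at 15 and 60 min were each kept in 1 of 6 fits that left out 1 library (adjusted p up to 0.141 and 0.18), that at 120 min in 3 of 6 (up to 0.111) and that at 30 min in 3 of 9 (up to 0.135). At 30 min the difference was -0.14 (adjusted p = 0.332) with HFD replicates 1 to 3 alone and -0.36 (adjusted p = 0.0161) with replicates 4 to 6 alone. At 60 min a fit of those groups alone did not call it (adjusted p = 0.0929).

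Averaged over the basal state, 4 insulin times and metformin, Srxn1 was lower on the 16-week HFD by -0.60 ± 0.08 on the log2 scale (adjusted p = 5.41e-08, edgeR), a 1.52-fold lower level. Txnrd1 was lower by -0.29 ± 0.04 (adjusted p = 7.62e-07), a 1.23-fold lower level. Nfe2l2 itself was higher, by 0.25 ± 0.06 (adjusted p = 0.000411), a 1.19-fold higher level. These 3 of the 10 genes were called, against 62.6% of all genes tested in this pooled comparison, and each of the 3 calls was kept in all 39 fits that left out 1 library. Keap1 differed by 0.03 in this mean and was not called, and with the length and GC trends removed its difference was -0.13 (adjusted p = 0.00103), so no direction is given for it. The 6 conditions differ in treatment, so the mean describes these groups together rather than 1 physiological state.

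**Figure D2:**
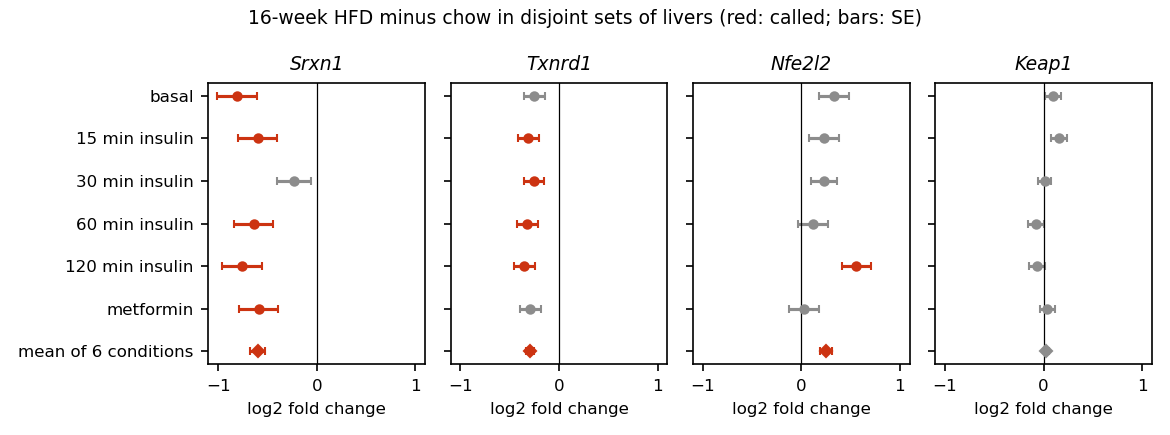
Log2 fold changes of 16-week HFD minus chow for Srxn1, Txnrd1, Nfe2l2 and Keap1 in 6 conditions with no shared libraries and in their mean (diamonds), with bars of 1 SE and red points called at adjusted p under 0.05. Srxn1 and Txnrd1 lie below 0 in every condition, with means of -0.60 and -0.29, and Nfe2l2 has a mean of 0.25.

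Nfe2l2 showed its clearest difference by diet at 120 min of insulin. Chow livers then had 40.9, 43.5 and 35.8 CPM, the lowest group of the 14, and 16-week HFD livers 62.6, 56.3 and 58.7. The groups did not overlap, and the log2 fold change was 0.56 ± 0.15 (adjusted p = 0.00482, edgeR), kept in 6 of 6 fits that left out 1 library. Basal chow livers had 55.2, 60.7 and 49.3 CPM, all above the chow livers at 120 min, with a change on insulin of -0.46 ± 0.15 that was not called (adjusted p = 0.0627, edgeR; 0.0435 by DESeq2). In the same livers Gclc, the catalytic subunit of glutamate-cysteine ligase, had 322, 389 and 296 CPM at 120 min against 258, 221 and 245 in basal chow livers, a change of 0.48 ± 0.18 that was not called (adjusted p = 0.127, edgeR).

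Hmox1, Mt1 and Mt2 were higher in chow livers 120 min after insulin than in basal chow livers, and they were the largest changes of the 10 genes over the insulin times on chow. Hmox1 had 15.2, 15.9 and 27.8 CPM in basal livers and 46.5, 364 and 71.8 at 120 min. All 3 livers at 120 min lay above the basal ones, and library 2 stood far above the others. The log2 fold change was 3.04 ± 0.53 (adjusted p = 0.000408, edgeR) and fell to 1.60 without that library (adjusted p = 0.037). So the rise was present in the remaining livers, at a smaller size.

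Mt1 had 52.4, 141 and 101 CPM in basal chow livers and 231, 608 and 791 at 120 min. Mt2 had 27.6, 88.1 and 69.7 CPM in basal livers and 177, 638 and 696 at 120 min. Neither gene's groups overlapped, and library 1 was the lowest of its group in both genes at both times. The log2 fold changes were 2.47 ± 0.67 for Mt1 (adjusted p = 0.0236) and 3.03 ± 0.84 for Mt2 (adjusted p = 0.0276), by edgeR. Each call was kept in 1 of 6 fits that left out 1 library, that without library 1 at 120 min. Over the 6 fits the fold changes ran from 2.10 to 2.83 for Mt1 and from 2.67 to 3.44 for Mt2, with adjusted p up to 0.125 and 0.133. Tested with limma on the authors' normalized values, the 3 genes were called too, with log2 fold changes of 2.49 for Hmox1, 2.35 for Mt1 and 2.92 for Mt2.

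At 120 min 3 of the 10 genes were called on chow, all higher, against 5.08% of all genes tested. At the earlier times 0 of 10 were called by edgeR, with 0, 0 and 2 genes at an unadjusted p under 0.05 at 15, 30 and 60 min, and 1.13%, 0.0711% and 1.39% of all genes called. All 4 times are compared with the same 3 basal livers. The levels at 60 min were intermediate for Hmox1, at 67.8, 42.6 and 19.1 CPM (mean 43.2), and for Mt1, at 197, 294 and 80.3 CPM (mean 190). In both genes library 3 at 60 min fell inside the basal range. Summed Kupffer cell and macrophage markers were 366, 896 and 225 CPM in these livers, the last being the lowest of the 45 libraries. The part of these cells in the values at 60 min was not tested. At 15 and 30 min Hmox1 was 15.9 to 22.9 CPM, within the basal range.

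**Figure D3:**
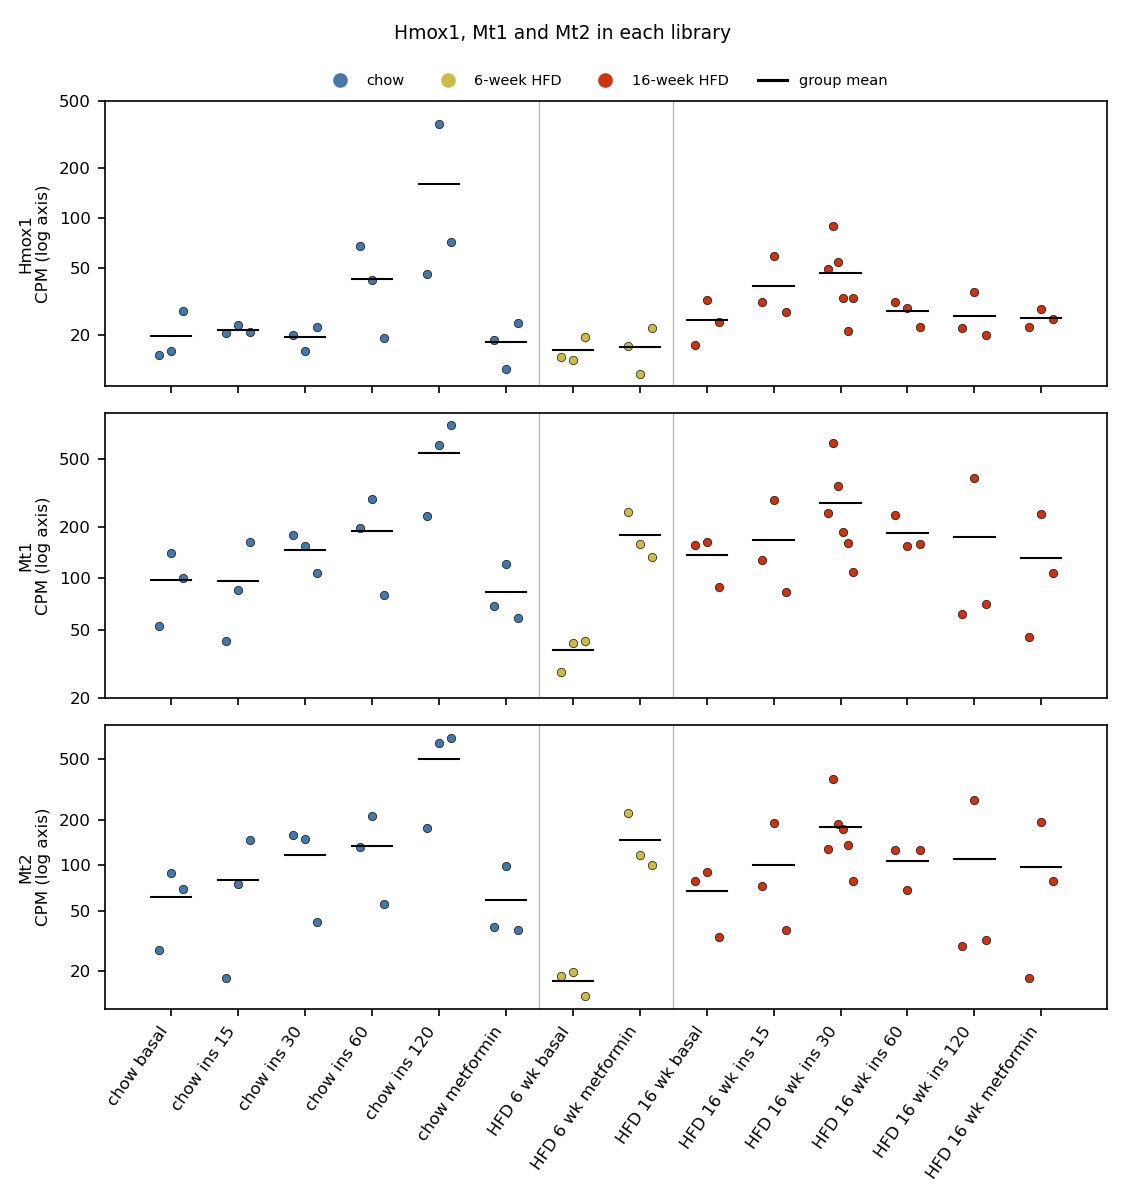
Hmox1, Mt1 and Mt2 in CPM on log axes for each of the 45 libraries, with points coloured by diet and bars at group means. In chow livers at 120 min of insulin all 3 libraries lie above the basal chow libraries for each gene, and basal 6-week HFD livers have the lowest group means of Mt1 and Mt2 (37.9 and 17.2 CPM).

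The marker lists give the cell content beside these changes. In whole liver, a change in the number of cells of a type and a change in RNA per cell cannot be told apart. Summed Kupffer cell and macrophage markers were 369, 341 and 374 CPM in the chow livers at 120 min and 300, 342 and 564 in basal chow livers, and 0 of 13 of these markers were called by edgeR in that comparison and 0 had an unadjusted p under 0.05 (median log2 fold change -0.11). The library with 364 CPM of Hmox1 thus had a macrophage sum of 341, below the median of 472 over all libraries. Its 5 neutrophil markers summed to 9.45 CPM, the highest of the 45 libraries, against 0.946 to 3.18 in basal chow livers, and the part of neutrophils in the Hmox1 value was not tested. Pancreatic acinar markers summed to 2912, 21.0 and 1355 CPM at 120 min, and the library with the least of them had 608 CPM of Mt1 and 638 of Mt2. Of the red blood cell list 4 of 7 markers were at 0 in all libraries, and the list summed to 63.9 to 73.2 CPM at 120 min and 64.0 to 92.7 in basal chow livers.

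On the 16-week HFD the picture differed at 120 min. Hmox1 was 21.9, 35.9 and 20.0 CPM, close to its basal values of 17.4, 32.2 and 23.9. Mt1 was 61.8, 390 and 71.2 CPM against 158, 163 and 88.8 in basal livers, and Mt2 was 29.4, 270 and 31.8 CPM against 78.5, 90.2 and 33.6. In both metallothionein genes library 2 was high and the other libraries lay below the basal range. The changes were 0.08 ± 0.50 for Hmox1, 0.35 ± 0.64 for Mt1 and 0.71 ± 0.79 for Mt2, none called (adjusted p = 0.974, 0.89 and 0.809, edgeR). Library 2 also had the highest macrophage sum of its group, 1342 CPM against 565 and 541, and the part of these cells in its metallothionein values was not tested.

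The difference between the diets in the response at 120 min, tested as an interaction, was -2.96 ± 0.71 for Hmox1 on the log2 scale (adjusted p = 0.0366, edgeR). It fell to -1.52 (adjusted p = 0.254) without chow library 2 at 120 min, and was kept in 6 of 12 fits that left out 1 library. For Mt1 and Mt2 the interactions were -2.12 and -2.32 and were not called, so a difference in their response to insulin between diets was not shown. Of the 10 genes 1 was called in this comparison, against 0.839% of all genes tested. At 15, 30 and 60 min 0 of 10 interactions were called by edgeR, with 0, 1 and 0 genes at an unadjusted p under 0.05, and 0.00711%, 0% and 0% of all genes called.

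Set directly against chow at 120 min, the 16-week HFD livers had less Hmox1 (-2.63 ± 0.52, adjusted p = 0.000337) and less Mt2 (-2.19 ± 0.82, adjusted p = 0.0419), by edgeR. For Mt1 the difference was -1.64 ± 0.65 and was not called (adjusted p = 0.0572, and 0.0497 by DESeq2), and it was -3.03 (adjusted p = 0.00397) without HFD library 2. For Mt2 leaving out that library gave -4.04 (adjusted p = 0.00321), and the call was kept in 2 of 6 such fits. The Hmox1 difference was called in each of its 6 such fits, at -1.19 (adjusted p = 0.0468) without chow library 2. This comparison called 5 of the 10 genes (Nfe2l2, Txnrd1, Srxn1, Hmox1 and Mt2) against 28.2% of all genes, and it shares the chow livers at 120 min with the insulin comparison. Of the macrophage markers 9 of 13 were called higher on the HFD here, against 28.2% of all genes called in either direction. Their median log2 fold change was 1.24. The part of macrophage content in the Hmox1 difference was not tested.

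At 30 min of insulin Hmox1 was higher on the 16-week HFD than on chow. Chow livers had 20.0, 15.9 and 22.1 CPM, and the 6 HFD livers had a lowest value of 21.1, a median of 41.6 and a highest of 90.0. A single HFD liver fell inside the chow range. The log2 fold change was 1.28 ± 0.46 (adjusted p = 0.0254, edgeR), 1.75 with replicates 1 to 3 alone (adjusted p = 0.00446) and 0.59 with replicates 4 to 6 alone (adjusted p = 0.377). The call was kept in 5 of 9 fits that left out 1 library and lost without any 1 of the 3 chow libraries (adjusted p up to 0.102) or without HFD replicate 2 (0.99, adjusted p = 0.0773). Macrophage markers summed to 827, 1509, 1098, 749, 614 and 744 CPM in HFD replicates 1 to 6 and to 352, 434 and 507 in the chow livers, without overlap. Of these markers 10 of 13 were called higher, where 37.3% of all genes tested were called in either direction. HFD replicate 2 had the highest macrophage sum of all 45 libraries and, after the chow liver with 364 CPM, the most Hmox1. It also had 8223 CPM of pancreatic acinar markers, against 7.5 to 443 in the other HFD livers at 30 min. The parts of macrophage and acinar content in the Hmox1 difference were not tested.

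**Figure D4:**
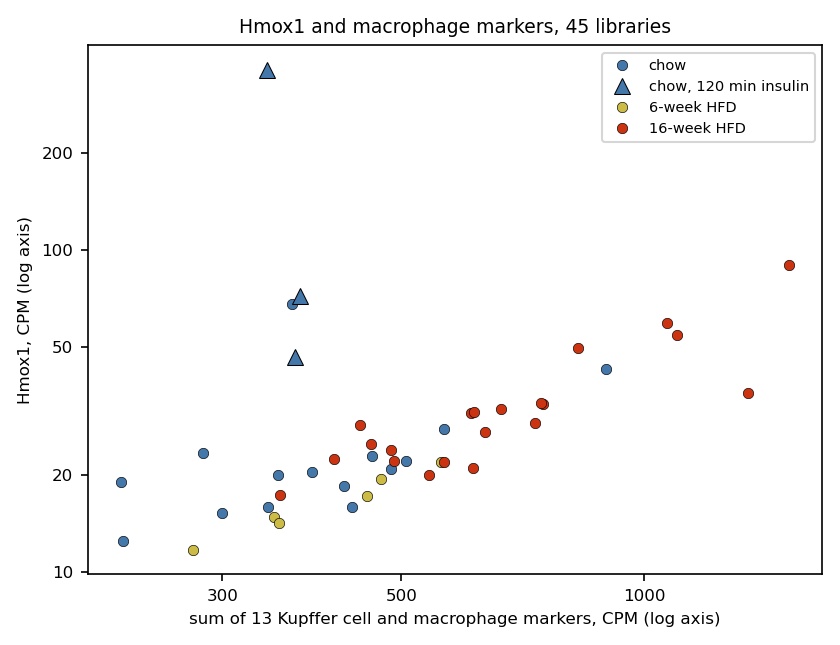
Hmox1 (y, log axis) against the sum of 13 Kupffer cell and macrophage markers (x, log axis), both in CPM, for 45 libraries coloured by diet, with triangles for chow livers at 120 min of insulin. Those 3 livers had macrophage sums of 341 to 374 with Hmox1 of 46.5 to 364, whereas among 16-week HFD livers the one with the largest sum (1509) had 90.0 CPM of Hmox1 and the one with the next largest (1342) had 35.9.

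The same 30 min comparison called Gclc higher on the HFD (0.47 ± 0.16, adjusted p = 0.0191, edgeR). Chow livers had 256, 219 and 202 CPM, and the 6 HFD livers had a lowest value of 280, a median of 307 and a highest of 373, without overlap. The call was lost with HFD replicates 4 to 6 alone (0.40, adjusted p = 0.104), with the length and GC trends removed and the replicate block (0.45, adjusted p = 0.051), without chow library 2 (adjusted p = 0.0674) and without chow library 3 (adjusted p = 0.101). At the other insulin times Gclc was not called, with differences of 0.07 at 15 min, -0.05 at 60 min and -0.44 at 120 min, so the sign was not the same throughout. Members called in the diet comparisons under insulin were 2 at 15 min, 3 at 30 min and 2 at 60 min, against 24.4%, 37.3% and 22.4% of all genes tested.

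Within the 16-week HFD group, insulin called 0 of the 10 genes by edgeR at any time, and DESeq2 also called 0. The number with an unadjusted p under 0.05 was 0, 2, 0 and 0 at 15, 30, 60 and 120 min, and 0%, 3.55%, 0.00711% and 0% of all genes were called. The largest differences were at 30 min, at 0.94 ± 0.45 for Hmox1, 1.03 ± 0.58 for Mt1 and 1.41 ± 0.72 for Mt2. At that time Mt1 had a lowest value of 109 CPM, a median of 215 and a highest of 625 over the 6 livers, against 88.8 to 163 in the 3 basal livers that all 4 times share. The highest value was that of replicate 2, the liver with 8223 CPM of acinar markers and the largest macrophage sum. With replicates 1 to 3 alone Hmox1 rose by 1.40 (adjusted p = 0.0491) and Srxn1 by 0.52 (adjusted p = 0.0435), by edgeR.

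On the 6-week HFD, metformin livers had more Mt2 than basal livers. Basal livers of that diet had 18.5, 19.7 and 13.6 CPM, the lowest group mean of the 14, and metformin livers had 221, 117 and 99.9. Mt1 went from 28.4, 42.0 and 43.2 CPM to 245, 159 and 134. In both genes every metformin liver lay well above every basal liver. The log2 fold change was 3.08 ± 0.85 for Mt2 (adjusted p = 0.0366, edgeR) and 2.24 ± 0.67 for Mt1, which was not called (adjusted p = 0.0554). In a fit of these groups alone Mt1 was called (2.23, adjusted p = 0.0154), as it was by DESeq2 (adjusted p = 0.027). Same-numbered libraries of these groups deviated together, and with the replicate number as a block Mt1 was called in the fit of all groups (2.32, adjusted p = 0.0193) and in that of these groups alone (2.20, adjusted p = 0.0325).

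The Mt2 call was lost in each of the 6 fits that left out 1 library (log2 fold changes of 2.66 to 3.30, adjusted p up to 0.157) and with the length and GC trends removed (2.82, adjusted p = 0.0828). Metformin livers of this diet leaned towards short genes (Spearman correlations of -0.40 to -0.28, against 0.09 to 0.17 in its basal livers), and Mt1 and Mt2 are the shortest of the 10 genes. Beyond that removal of trends, the part of this lean in the Mt1 and Mt2 values was not tested. In Mt2 the metformin livers also lay above every basal chow liver (27.6 to 88.1 CPM) and every basal 16-week HFD liver (33.6 to 90.2). In Mt1 they overlapped both, since basal chow livers had 52.4 to 141 CPM and basal 16-week HFD livers 88.8 to 163. Basal 6-week HFD livers differed from basal chow livers by -1.37 ± 0.65 in Mt1 and -1.84 ± 0.81 in Mt2, neither called (adjusted p = 0.184 and 0.148, edgeR), although the groups did not overlap in either gene. Fitted on those groups without the others, both were called, with adjusted p = 0.0381 and 0.0223.

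On chow and on the 16-week HFD metformin called 0 of the 10 genes by edgeR, with 2 at an unadjusted p under 0.05 on each diet. Mt2 changed by -0.08 ± 0.79 on chow and 0.52 ± 0.79 on the 16-week HFD. In the 16-week HFD metformin livers it was 18.0, 194 and 78.1 CPM, a spread that covers the basal values of 78.5, 90.2 and 33.6. All genes were called in 1.94% on chow, 3.17% on the 6-week HFD (with 1 of the 10) and 28.4% on the 16-week HFD. The interactions of metformin with diet were 3.16 for Mt2 and 2.48 for Mt1 on the 6-week HFD against chow and were not called. By edgeR, and by DESeq2, 0 of 10 were called for either duration of HFD, with 3 at an unadjusted p under 0.05 at 6 weeks and 0 at 16 weeks, and with 0.0427% and 4.96% of all genes called.

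Averaged over the 3 diets, metformin livers had more Keap1 mRNA (0.17 ± 0.05, adjusted p = 0.00684, edgeR), a 1.12-fold higher level. Basal livers had 52.5 to 56.1 CPM of Keap1 on chow, 52.2 to 61.3 on the 6-week HFD and 56.1 to 59.7 on the 16-week HFD. Metformin livers had 59.4 to 67.3, 58.5 to 61.4 and 62.0 to 67.1 CPM in the same order, above the basal range on chow and on the 16-week HFD and overlapping it on the 6-week HFD. The call was kept in 18 of 18 fits that left out 1 library, and the value was 0.34 (adjusted p = 3.55e-06) with the length and GC trends removed. Mt2 was also called in this mean (1.18 ± 0.46, adjusted p = 0.0486), a call kept in 6 of 18 such fits (0.84 to 1.34, adjusted p up to 0.153) and in 3 of 7 other alternatives. It was lost under RLE scaling (adjusted p = 0.0511), with no filter on low counts (0.0618) and with the length and GC trends removed, alone (0.97, adjusted p = 0.139) or with the replicate block (0.90, adjusted p = 0.125). These were 2 of the 10 genes, against 31.2% of all genes tested.

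Among the metformin-treated groups, diet called 1 of the 10 genes, Srxn1, for 16-week HFD minus chow (20.4% of all genes) and for 6-week HFD minus chow (4.43%). For 16-week minus 6-week HFD on metformin 0 of 10 were called by edgeR and 0 had an unadjusted p under 0.05, with 0.0213% of all genes called. These comparisons share livers in pairs.

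Nqo1, the quinone reductase often used as a readout of Nrf2, and Gclm, the regulatory subunit of glutamate-cysteine ligase, were called in none of the 29 comparisons in the model of all groups. With the length and GC trends removed Gclm was called lower on metformin on the 16-week HFD (-0.38, adjusted p = 0.0341), and with the replicate block added it was also called higher by diet at 30 min of insulin (0.34, adjusted p = 0.0184), by edgeR. Without chow metformin library 1 Nqo1 was called lower on the 6-week HFD than on chow under metformin (-0.99, adjusted p = 0.0477) and higher on metformin over the 3 diets (0.43, adjusted p = 0.0373). Gclm had group means of 113 to 129 CPM and single libraries of 103 to 152 CPM. Its ratio of highest to lowest group mean, 1.14, was the smallest of the 10 genes. Its SE was 0.11 in basal comparisons, with a 16-week minus chow difference of 0.02. Nqo1 was low, at 98 to 403 reads per library and 4.73 to 18.3 CPM, with an SE of 0.28 in basal livers. Its means ran from 6.37 CPM in basal 6-week HFD livers to 13.1 in chow metformin livers, where single livers had 7.42, 18.3 and 13.7. Basal 6-week HFD livers had 5.26, 5.81 and 8.05 CPM of Nqo1, below all basal chow livers (9.08, 9.99 and 9.77), a difference of -0.59 ± 0.28 that was not called (adjusted p = 0.19, edgeR).

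**Figure D5:**
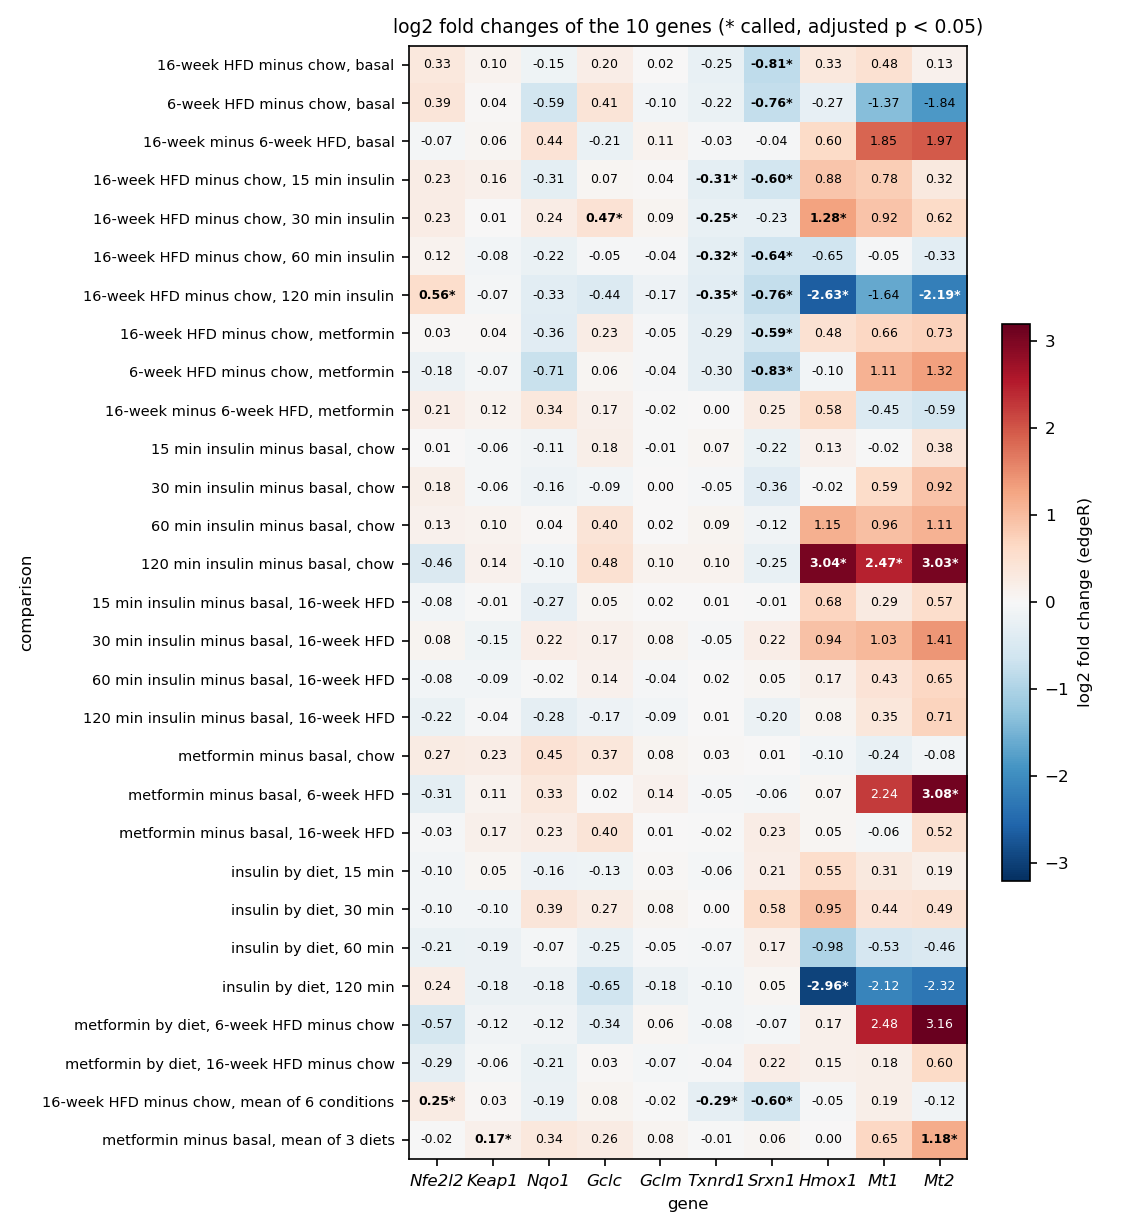
Log2 fold changes of the 10 genes (x) in the 29 comparisons (y) as a colour scale with the values written in, where a star marks adjusted p under 0.05. For diet, stars lie in the columns of Srxn1, Txnrd1, Nfe2l2, Gclc, Hmox1 and Mt2. For insulin they lie at 120 min on chow in Hmox1, Mt1 and Mt2 and for the interaction in Hmox1, and for metformin in Mt2 and Keap1, with none for Nqo1 or Gclm.

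Over the comparisons 26 of 290 pairs of gene and comparison were called. In single comparisons 0% to 50% of the 10 genes were called, against 0% to 62.6% of all genes tested. In ordering groups by their mean, neighbouring groups overlapped in their single values in all 13 steps for 7 of the genes and in 12 of 13 for Nfe2l2, Mt1 and Mt2, so the orders have few clear steps. For Nfe2l2 the ends of the order were chow at 120 min of insulin (mean 40.0 CPM) and the 16-week HFD at 30 min (73.0). For Mt1 and Mt2 they were basal 6-week HFD livers (37.9 and 17.2 CPM) and chow livers at 120 min (543 and 503). For Hmox1 they were basal 6-week HFD livers (16.2) and chow livers at 120 min (161).

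The metallothioneins moved together across groups, with the ratio of Mt2 to Mt1 in CPM at 0.314 to 1.05 over the 45 libraries. The ratio was 0.898 ± 0.145 (SD, n = 3) in chow livers at 120 min, 0.796 ± 0.094 in 6-week HFD metformin livers, and 0.477 ± 0.168 and 0.476 ± 0.0887 in basal livers of the 6-week and 16-week HFD. As a ratio of highest to lowest group mean, Mt2 varied more than Mt1. The ratio was 29.2 for Mt2 (17.2 to 503 CPM) and 14.4 for Mt1 (37.9 to 543 CPM).

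A further 37 genes of the Nrf2 programme were tested (glutathione enzymes and transporters, thioredoxin and peroxide enzymes, NADPH producers and detoxification enzymes). In basal livers at 16 weeks of HFD 7 were higher and 6 lower (35.1% called against 32.3% of all genes tested, median log2 fold change 0.13 against 0.02). Those lower included Gsr, glutathione reductase (-0.72 ± 0.10, adjusted p = 1.39e-06), and Gstp1 (-1.44 ± 0.34, adjusted p = 0.00112). Cbr1, carbonyl reductase (-0.96 ± 0.20, adjusted p = 0.000418), and Ephx1 (-0.50 ± 0.17, adjusted p = 0.0247) were also lower. Those higher included Gpx1, glutathione peroxidase (0.63 ± 0.14, adjusted p = 0.000772), and Prdx6 (0.48 ± 0.12, adjusted p = 0.00326). Tkt (0.55 ± 0.16, adjusted p = 0.00985) and Taldo1 (0.42 ± 0.15, adjusted p = 0.0354) were higher as well, all by edgeR. At 6 weeks 1 was higher and 3 lower (10.8% called against 11% of all genes). Both shares were close to those of all genes tested.

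At 120 min of insulin on chow, where 5.08% of all genes tested were called, 0 of the 37 were called by edgeR, 1 had an unadjusted p under 0.05, and the median was 0.09. Of 11 Nrf2 partners and regulators tested 3 rose (27.3%), among them the small Maf genes Mafk (0.80 ± 0.16, adjusted p = 0.00144) and Maff (2.27 ± 0.45, adjusted p = 0.00176), by edgeR. Of 10 metal-handling genes tested 2 rose (20%), the zinc importer Slc39a14 (0.73 ± 0.19, adjusted p = 0.0152) and the zinc exporter Slc30a1 (0.44 ± 0.12, adjusted p = 0.0268). Of 8 glucocorticoid-responsive genes 1 rose (12.5%), the clock gene Per1 (0.75 ± 0.23, adjusted p = 0.0473), and the median was 0.82. Of 16 acute phase genes 3 rose (18.8%), among them Socs3, a feedback inhibitor of cytokine signalling (3.0 ± 0.63, adjusted p = 0.0029), and Saa4 (1.54 ± 0.29, adjusted p = 0.00109). Of 14 heme and iron genes 0 were called by edgeR and 1 had an unadjusted p under 0.05, with a median of 0.07.

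At 120 min the 16-week HFD livers were lower than chow livers in 4 of the 8 glucocorticoid-responsive genes and higher in 0 (50% called against 28.2% of all genes tested), with a median of -0.57. They included Sgk1 (-0.80 ± 0.23, adjusted p = 0.00813) and Tat, tyrosine aminotransferase (-1.22 ± 0.35, adjusted p = 0.00952), by edgeR. Among 10 metal-handling genes 3 were lower, including Slc30a1 (-0.65 ± 0.12, adjusted p = 0.000208) and the zinc importer Slc39a4 (-1.20 ± 0.26, adjusted p = 0.000863), and 1 was higher (40% called). The acute phase genes named did not share a direction. Saa4 was higher on the HFD (1.49 ± 0.29, adjusted p = 0.000289) and Socs3 lower (-2.34 ± 0.61, adjusted p = 0.00437), by edgeR.

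Metformin on the 16-week HFD raised 10 of the 37 Nrf2 programme genes and lowered 2 (32.4% called against 28.4% of all genes, median 0.38 against -0.01). Those higher included Gpx4, which reduces lipid peroxides (0.78 ± 0.14, adjusted p = 0.000199), Gss, glutathione synthetase (0.62 ± 0.14, adjusted p = 0.00131), and Cbr1 (0.70 ± 0.20, adjusted p = 0.00979), by edgeR. On the 6-week HFD 2 were higher, Gpx4 (0.62 ± 0.14, adjusted p = 0.0114) and the cystine transporter gene Slc7a11 (2.63 ± 0.73, adjusted p = 0.0387), and on chow 1 was higher. These were 5.41% and 2.7% of the 37, against 3.17% and 1.94% of all genes tested. The lean of metformin libraries towards short genes accompanies these values, and its part in them was not tested.

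The genes whose group means followed those of Srxn1 most closely were Cyp3a11 (Pearson r = 0.959 over the 14 groups), Cyp3a59 (0.948) and the organic anion transporter gene Slco1a4 (0.945), of 9335 genes compared on log2 CPM. Those closest to Hmox1 were Tspyl2 (0.882), Tomm34 (0.847) and Icam1 (0.842). After Mt2 (0.980), the gene most like Mt1 was Hmox1 (0.805), and after Mt1 those most like Mt2 were Ddit4 (0.806) and Cebpd (0.796). Nqo1 was most like Gsta2 (0.884), Ugdh (0.820) and Tmbim1 (0.813). The nearest genes to Txnrd1 were Nfx1 (0.969), Cpsf7 (0.967) and Tbc1d24 (0.959), and that nearest to Keap1 was Ddx23 (0.918). All groups share a scaling across libraries, and these values are descriptions.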

How the data were processed

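Poly(A) RNA of mouse liver was measured in 45 libraries by paired-end mRNA-seq per the labels' protocols, with the TruSeq RNA v1 kit, which does not mark strand. The authors deposited raw read counts per gene and, for the insulin series, normalized values (a signal scale, after CQN and DESeq2 in the deposited names). TopHat 1.4.0, HTSeq (version not given), DESeq2 1.0.18 and build mm9 are named in the submitters' processing notes. Counts were used as deposited. No gene-less rows, identical libraries or unmapped columns were found. Library totals were 18193181 to 50253493 reads.

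Genes passing filterByExpr (minimum count 10) were scaled by TMM and fitted with edgeR 4.0.16 (R 4.3.3) in 1 quasi-likelihood model with a coefficient for each of the 14 groups. In all, 29 contrasts were tested, and p-values were Benjamini-Hochberg adjusted over the 14067 genes within each. A call is an adjusted p under 0.05. SE was taken as the size of the log2 fold change over the root of its F statistic. All 10 genes are described. From other lists up to 2 called genes with the smallest adjusted p are named, and genes alike are the 3 with the highest r among those with a mean of 5 CPM or more. Members, lists and tests were chosen with earlier results of these data known.

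Alternatives were RLE scaling, no filter, DESeq2 1.42.0, fits of only the groups compared, removal of each library's length and GC trends, limma 3.58.1 on the authors' signal values (log2 with a pseudocount of 1), leaving out single libraries (45 fits) or sets, and the replicate number as a block. Whether numbers pair libraries was checked by the correlation of deviations from group means. All 3 correlations were over 0.1 for 4 compared pairs of groups, at 60 min on chow and 16-week HFD (0.14, 0.25 and 0.15), metformin on chow and 6-week HFD (0.32, 0.36 and 0.33), and basal and metformin on the 16-week (0.34, 0.23 and 0.26) and 6-week HFD (0.25, 0.35 and 0.35). This comes from the data alone.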

Additional observations from a re-analysis of the deposited data

Results flagged for a closer look

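In the 6 livers at 30 min of insulin on the 16-week HFD, the highest Nfe2l2 level was 90.9 CPM (replicate 1), and the gap to the next liver (72.4 CPM) was large for the range of the group, whose lowest value was 66.0. This was 1 of 10 such groups of values looked at, 1 for each gene, and chance marks about 1 in 20. Nfe2l2 was not called in this group's comparison with chow.

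The change of Hmox1 at 120 min of insulin differed between the 16-week HFD and chow by -2.96 on the log2 scale in the test of the interaction. It was higher than basal in 3 of 3 chow livers and overlapped the basal range on the HFD. Chow library 2, at 364 CPM, sets much of its size.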

How the results depend on the processing

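Of the 26 calls, 9 were kept in every alternative and with each library left out, and none reversed. Fitted on the groups of each comparison without the others, the number of the 10 genes called, summed over the comparisons of a kind, was 9 for diet in basal livers (2 in the model of all groups), 1 for diet on metformin (2), 5 for insulin on chow (3), 3 for metformin (1) and 0 for the insulin by diet interactions (1). Leaving out 1 library gave 1 to 2 for diet in basal livers, 0 to 5 for diet on metformin, 1 to 4 for insulin on chow, 0 to 2 for metformin and 0 to 1 for the insulin by diet interactions. For diet in insulin-treated livers the range was 8 to 13 (12 in the model of all groups). Metformin gave 2 calls with DESeq2, 2 with the length and GC trends removed (Keap1 and Gclm on the 16-week HFD, with Mt2 lost), and 2 without the first library of both the basal and the metformin group of the 16-week HFD. Insulin on the 16-week HFD gave 2 without libraries 4 to 6 at 30 min (0 in the model of all groups). Apart from the sets of libraries left out and single libraries, the cause of these differences was not tested. The shares of all genes called in these alternatives and with the block are not given here. The counts are therefore not results about the 10 genes alone.

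With the replicate number as a block, insulin on the 16-week HFD gave 2 calls (Srxn1 and Hmox1 at 30 min) and metformin 2 (Mt1 and Mt2 on the 6-week HFD). The block with the trends removed gave 1 and 3 calls, and 0 for the insulin by diet interactions. In the 4 comparisons whose numbers pair the libraries, the block in the model of all groups added the call of Mt1 for metformin on the 6-week HFD and ended none. In the unpaired comparison at 30 min by diet it ended that of Txnrd1 (-0.15, adjusted p = 0.298). Nqo1 had 98 to 403 reads a library and an SE of 0.28 in basal comparisons, and the size of change that could be detected was not computed.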
